A study of Mus musculus with 4 samples.

Results

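Among the CD8+ T cells sorted from mouse kidney tumors grown in syngeneic hosts, a small population carried RNA of both Ly6c2, a surface protein of antigen-experienced and interferon-exposed T cells, and Gzmm, the gene of granzyme M, and no RNA of Gzmk or Gzmb, the granzymes of effector cells. These Ly6c2+Gzmm+ cells numbered 96 of 9200 CD8+ T cells, 21900 cells within the quality limits and 38860 barcodes called as cells. They were chosen from the RNA counts of each droplet barcode with 200 to 3000 detected genes and at most 5% mitochondrial unique molecular identifiers (UMIs, each a counted molecule). A CD8+ cell had at least 3 UMIs of Cd8a and Cd8b1 and none of Cd4, and a Ly6c2+Gzmm+ cell also had at least 2 UMIs of Ly6c2, at least 1 of Gzmm and none of Gzmk and Gzmb. The 7 genes of this rule set the population and are described below without a test.

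The cells came from 4 CITE-seq libraries, in which RNA and surface proteins, the latter through barcoded antibodies (tags), were counted in each droplet. C57BL/6J mice, 6 weeks old at injection, carried subcutaneous tumors of 105K cells, a kidney tumor line that lacks Tsc2 and is therefore mTORC1-hyperactive. In the sh-NC group (n = 2 libraries) the tumor cells expressed a non-targeting hairpin, and in the sh-B7-H3 (1) group (n = 2 libraries) a hairpin that targets Cd276, which encodes the checkpoint ligand B7-H3. The tumor lines were transduced pools rather than single clones, and intratumoral live T cells were sorted by CD3, so that the hairpin acted in cells that were sorted away. Tumors were pooled, 80 in each group. The series description speaks of duplicate lanes of the pooled cells, whereas the study treats both libraries as independent, so that it is not settled whether the spread between them is technical or biological. The library is the replicate of every p-value, with 2 libraries per group. The edgeR tests also estimate the spread with information from all genes, so a small p-value does not show that the 2 libraries agree closely. Handling that differed between the pools of the groups cannot be separated from the hairpin.

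Memory CD8+ T cells persist after antigen has been met, depend on the cytokines IL-7 and IL-15, and keep cytolytic genes ready while dividing rarely. Central memory cells also keep the homing receptor CCR7 and recirculate through lymph nodes, whereas cells that see antigen in a tumor over long periods lose these genes and gain PD-1, LAG-3 and CD39. Ly6C is found on many memory CD8+ T cells and responds to interferon, and granzyme M is a protease of natural killer (NK) cells and innate-like lymphocytes. NKG2D, the product of Klrk1, is an activating receptor of both NK and CD8+ T cells.

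The population held 42 and 30 cells in the sh-NC libraries and 9 and 15 cells in the sh-B7-H3 (1) libraries. Ly6c2 was abundant in these cells, with a median of 16 UMIs per cell (range 2 to 51), and 74 of 96 cells had at least 10 UMIs. Gzmm was sparse, with a median of 1 UMI and a maximum of 10, and 50 of 96 cells held exactly 1 UMI. Thus most cells lay far inside the Ly6c2 threshold (2 cells had exactly 2 UMIs), whereas more than every other cell lay at the Gzmm threshold. Among all 138 CD8+ cells with a Gzmm UMI, 106 had at least 2 Ly6c2 UMIs, 2 had a single Ly6c2 UMI (1 of them free of Gzmk and Gzmb and so just outside the rule) and 30 had none. Of the 106 cells, 10 (9.43%) held a Gzmk or Gzmb UMI and were left out. As a background for these sparse genes, 0.744% of 5376 CD4+ cells (median depth 7521 UMIs, against 8593.5 in CD8+ cells) had at least 2 Ly6c2 UMIs, 0.502% had a Gzmm UMI, and 3 cells had both. The Gzmm share of CD4+ cells was 0.368 and 0.252% in the sh-NC and 0.723 and 0.943% in the sh-B7-H3 (1) libraries. That of CD8+ cells was 1.65 and 1.57% in the sh-NC and 1.41 and 1.19% in the sh-B7-H3 (1) libraries. The CD4+ background was thus closer to the CD8+ share in both knockdown libraries.

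Ly6c2 lies at chr15:75108158-75111970 on the minus strand of GRCm38, and Gzmm at chr10:79689020-79695261 on the plus strand. Ly6c2 shared 25.1% of its 2708 transcript words of 25 bases with its neighbor Ly6c1, so that reads of the 2 genes may be divided between them. Ly6c1 UMIs were present in 4 of 96 Ly6c2+Gzmm+ cells.

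The cells were deeper than other CD8+ T cells. Their median depth was 12727 and 13591 RNA UMIs in the sh-NC libraries and 15459 and 12715 in the sh-B7-H3 (1) libraries. CD8+ cells without Ly6c2 and Gzmm, the reference population of 5662 cells, had 8139, 8557, 6692 and 6785 in the same order. Without the upper limit on detected genes the rule found 194 cells. A doublet score marked 8 of 96 cells (8.33%), 6 of them in sh-NC library 2 (20% of its 30 cells). The same score marked 16.6% of all CD8+ cells and 19.0% of those in sh-NC library 2. Libraries shared 17 to 35 called barcodes per pair, and none of the Ly6c2+Gzmm+ barcodes was shared.

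The label of these cells as memory-like CD8+ T cells was set beside marker lists. Each value is the sum over a list in CPM (counts-per-million of the population's UMIs in a library), in the order sh-NC 1, sh-NC 2, sh-B7-H3 (1) 1 and sh-B7-H3 (1) 2, which is used throughout. Of the 6 markers of the label, Ly6c2 and Gzmm were set by the rule and check nothing. The remaining markers come with a label proposed when earlier results of these data were known, so they describe the cells without testing the label. The other markers, Plac8, Ms4a4c, Samd3 and Klrk1, summed to 504, 473, 537 and 383 CPM, against 149, 155, 169 and 156 CPM in the reference cells. In Ly6c2+ cells without Gzmm (at least 2 Ly6c2 UMIs and none of Gzmm, Gzmk and Gzmb) they summed to 337, 345, 365 and 332 CPM. The sum was thus higher in the Ly6c2+Gzmm+ cells in every library, but not each gene. Plac8 was not separated from the Ly6c2+ cells without Gzmm. It was measured at 229, 224, 132 and 153 CPM against 181, 187, 197 and 168 CPM there (log2 −0.03), higher in both sh-NC and lower in both sh-B7-H3 (1) libraries. Ms4a4c (log2 0.50) and Samd3 (2.02) were higher than in those cells in all 4 libraries, and Klrk1 (0.86) in 3. Klrk1 did not mark the population in the knockdown libraries. Its level was 35.9, 46.3, 22.1 and 15.3 CPM in Ly6c2+Gzmm+ cells and 13.6, 14.9, 60.9 and 48.6 CPM in the reference cells, so that it was higher in the former in both sh-NC libraries and lower in both sh-B7-H3 (1) libraries.

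The naive T cell markers Ccr7, Lef1 and Tcf7 were high, with a sum of 455, 468, 361 and 327 CPM. The reference cells were above this in the sh-NC libraries (660 and 632 CPM) and below it in the sh-B7-H3 (1) libraries (228 and 237 CPM), and Ly6c2+ cells without Gzmm were above it in all 4 (495 to 656 CPM). Most markers of other cell types were low. The NK list summed to between 7.36 and 20.4 CPM, with Ncr1, Klrb1c and Klra8 at 0 in all 4 libraries, and markers of mucosal-associated invariant and NK T cells to between 0 and 5.10 CPM. Gamma-delta T cell genes reached 0 to 10.3 CPM in 3 libraries and 71.4 CPM (14 UMIs) in sh-B7-H3 (1) library 2, and B cell genes 0 to 23.1 CPM. Cycling genes were at 0 in 3 libraries and at 5.10 CPM in the fourth. Myeloid markers reached 12.9 to 51.5 CPM, against 187 to 682 CPM in the reference cells and the 4 T cell genes 2112 to 2792 CPM. Regulatory T cell genes reached 2.57 to 15.3 CPM, and genes of tumor or stroma cells 10.2 to 34.0 CPM, with Krt8, Krt18, Col1a1 and Col3a1 at 0. The plasmacytoid dendritic cell list was the exception, with 162, 139, 132 and 153 CPM against 328, 299, 228 and 214 CPM in the reference cells. Nearly all of it was Bst2, an interferon-inducible gene that T cells also express, at 155, 139, 132 and 143 CPM, and Siglech, which defines that cell type, was at 0 in all 4 libraries. With 1250180 RNA UMIs in all 96 cells, a count of 0 allows a level of up to 2.40 CPM (3 counts), and between 5.67 and 22.1 CPM in a single library.

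Gene by gene, RNA of naive and central memory genes and of effector-memory genes was detected in the cells, counted as at least 1 UMI at full depth with no background subtracted. Il7r, the IL-7 receptor, was detected in 89 of 96 cells, Lef1, a transcription factor of naive and central memory cells, in 78 and Ccr7 in 61. Ccl5, a chemokine stored by memory cells, was detected in 82, Il2rb, the shared receptor chain for IL-2 and IL-15, in 81, Cxcr3, the receptor that guides T cells to interferon-inducible chemokines, in 70 and Nkg7, a granule protein, in all 96. UMIs of Il7r and Ccl5 were found together in 79 cells, Il7r alone in 10, Ccl5 alone in 3 and neither in 4. Cd44, the adhesion receptor of antigen-experienced cells, was detected in 43 cells. The memory transcription factors Eomes and Tbx21 (T-bet) were detected in 36 and 20 cells, Tox in 26 and Pdcd1, which encodes PD-1, in 1.

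Detection depends on depth, so each cell was thinned to 3000 UMIs and the shares were averaged over the 4 libraries. Il7r was then present in 52.9% of Ly6c2+Gzmm+ cells and 27.5% of reference cells, Cxcr3 in 31.2% and 10.6%, and Il18r1, a chain of the IL-18 receptor, in 27.7% and 5.85%. Ccl5 was present in 71.4, 83.3, 88.9 and 53.3% of thinned Ly6c2+Gzmm+ cells, 22.9, 27.3, 82.3 and 83.7% of reference cells and 17.9, 19.2, 49.6 and 47.4% of Ly6c2+ cells without Gzmm. Its share was thus not at 1 low level across classes, and in sh-B7-H3 (1) library 2 it was lower in the Ly6c2+Gzmm+ cells than in the reference cells. No thinned Ly6c2+Gzmm+ cell held Pdcd1 or Lag3, which were present in 26.3% and 23.4% of reference cells. S100a4, a calcium-binding protein of effector cells, was present in 6.03% and 36.4%. Gzmm itself remained in 33.4% of the cells at this depth, a share the rule fixes only in the unthinned counts.

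The RNA of the Ly6c2+Gzmm+ cells was next described against the reference cells of the same library. Since the cells were chosen on RNA, these differences have no test. They are given as the mean log2 ratio of CPM plus 5 over the 4 libraries with its SD. Leaving out the genes of the rule and mitochondrial, ribosomal protein and T cell receptor genes, 2061 genes averaged 50 CPM or more in either population, of which 481 differed by at least 1.5-fold on average and in the same direction in all 4 libraries, 52 higher and 429 lower in the Ly6c2+Gzmm+ cells. This split moved with the content of ribosomal protein RNA, which took 51.9, 51.6, 52.0 and 52.6% of the RNA UMIs of the Ly6c2+Gzmm+ cells and 45.7, 45.1, 37.2 and 37.6% of those of the reference cells. With these genes left out of the totals, 303 of the 2061 genes met the criteria, 118 higher and 185 lower, and the 30 genes of the naming rule kept their direction.

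Among the higher genes of the naming rule and the lists were Cxcr3, Il18r1, Il18rap, Gpr183 and Xcl1. Cxcr3 was measured at 145, 84.8, 103 and 133 CPM, against 16.9, 22.4, 51.0 and 47.5 CPM in the reference cells (log2 1.71 ± 0.78, SD, n = 4). Il18r1 was measured at 51.0, 118, 81.0 and 61.2 CPM, against 17.7, 17.8, 33.7 and 29.3 CPM (log2 1.46 ± 0.67). For both genes every library of the population lay above every reference library. Il18rap, the second IL-18 receptor chain, followed with 18.9, 36.0, 36.8 and 20.4 CPM against 1.68 to 7.90 CPM. Gpr183, the oxysterol receptor that positions lymphocytes within lymphoid tissue, was measured at 115, 105, 95.7 and 71.4 CPM against 47.6, 44.4, 25.7 and 22.8 CPM, again without overlap. Xcl1, a chemokine ligand for cross-presenting dendritic cells, varied widely between libraries, at 41.6, 118, 184 and 86.7 CPM, and overlapped the reference range of 12.5 to 73.7 CPM. Cxcr3 was close to its level in CD8+ cells with at least 2 UMIs of Gzmk (log2 0.31) or of Gzmb (0.13), higher in 3 libraries each. Against the same 2 classes Xcl1 (0.32 and 0.97) was also higher in 3 libraries, and Il18r1 (1.22 and 1.46) and Gpr183 (1.76 and 1.74) in all 4.

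The remaining higher genes included markers of the label. Samd3 was measured at 49.1, 46.3, 110 and 30.6 CPM against 3.02, 3.37, 12.3 and 13.3 CPM (log2 2.27 ± 0.87, the largest ratio of the named genes). Ms4a4c, a membrane protein of the CD20 family, was measured at 191, 157, 272 and 184 CPM against 47.9, 51.4, 28.3 and 26.9 CPM. Plac8 reached 229, 224, 132 and 153 CPM against 67.2 to 85.2 CPM. All 3 genes lay above the reference range in every library. Klra7, a Ly49 receptor, was not in the naming rule and was picked after its values were seen. It was measured at 13.2, 41.1, 22.1 and 10.2 CPM and did not exceed 0.805 CPM in any reference library.

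Several ratios differed in size between the tumor groups. Il7r was measured at 378, 414, 383 and 276 CPM in the Ly6c2+Gzmm+ cells and at 265, 245, 75.4 and 94.0 CPM in the reference cells, and Klf2, the transcription factor that maintains S1pr1, at 461, 452, 515 and 337 CPM against 380, 348, 125 and 126 CPM. In the reference cells both genes were lower in both knockdown libraries, whereas in the Ly6c2+Gzmm+ cells the groups overlapped for each of them.

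Pdcd1, Lag3, Ifng, Ccl4 and S100a4 were lower than in the reference cells, which include the Gzmk+ and Gzmb+ effector cells that the rule bars from the population. Pdcd1 was at 0, 0, 7.36 and 0 CPM against 53.3, 66.6, 218 and 221 CPM in the reference cells. Lag3 was at 0, 2.57, 0 and 0 CPM against 39.7 to 199 CPM. Interferon-gamma (Ifng) was at 1.89, 0, 7.36 and 0 CPM against 22.9, 32.1, 144 and 131 CPM. The 3 genes were thus represented by at most a single UMI in any library of the population. Low levels were also found in the Ly6c2+ cells without Gzmm, where Pdcd1 was measured at 1.76, 1.55, 8.12 and 14.5 CPM, Lag3 at 0.834, 0.824, 8.12 and 7.84 CPM and Ifng at 0.649, 2.37, 6.64 and 4.71 CPM. Ccl4, a chemokine of activated cells, was measured at 26.4, 54.0, 29.4 and 40.8 CPM against 243, 200, 1075 and 928 CPM, and S100a4 at 30.2, 12.9, 14.7 and 25.5 CPM against 160, 232, 1244 and 1169 CPM. Ccr9, a gut-homing receptor of recent thymic emigrants and naive CD8+ cells, was also low, at 7.56, 0, 0 and 10.2 CPM against 109, 102, 43.9 and 41.0 CPM, and Igkc, an immunoglobulin chain of B cells, was at 0 in all 4 libraries against 23.2 to 107 CPM.

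Gene lists were counted by the same direction and 1.5-fold criteria among genes of at least 20 CPM in either population, leaving out the genes of the rule. Of all 4655 such genes 99 (2.13%) were higher and 960 (20.6%) lower, with a median log2 ratio of −0.35. With ribosomal protein genes left out of the totals, 256 (5.50%) were higher and 443 (9.52%) lower, and the median was −0.09, so that a list is to be read against these shifts. Of 28 measured memory CD8 genes 8 were higher and 8 lower (median −0.04), and of 20 naive and quiescence genes 4 were higher and 6 lower (median −0.22). With ribosomal protein genes left out of the totals these counts were 9 and 8 (median 0.22) and 5 and 4 (median 0.04), so that the sign of both medians turned. All but 1 of the 8 inhibitory receptors were lower, and none was higher (median −2.29). Of 7 cytokines and chemokine ligands 6 were lower and 1, Xcl1, higher. Of 35 interferon-stimulated genes 20 were lower and 1 higher (median −0.82), and of 16 genes of MHC class I and peptide loading 14 were lower and none higher (median −0.90). Without ribosomal protein genes in the totals, 7 inhibitory receptors, 6 cytokines and chemokine ligands, 17 interferon-stimulated genes and 8 genes of MHC class I and peptide loading were still lower. Other lists were mixed. Of 14 cytokine receptors 3 were higher and 2 lower, of 17 migration genes 4 were higher and 5 lower, of 7 cytolytic granule genes 1 was higher and 2 lower, of 11 glycolysis genes 1 was higher and 1 lower, and of 5 killer lectin-like receptors 1 was higher and none lower. Of 14 immediate early genes 9 were lower, 5 of them without ribosomal protein genes in the totals, and of 17 genes of actin, S100 proteins and annexins 5 were lower under both.

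**Figure D1:**
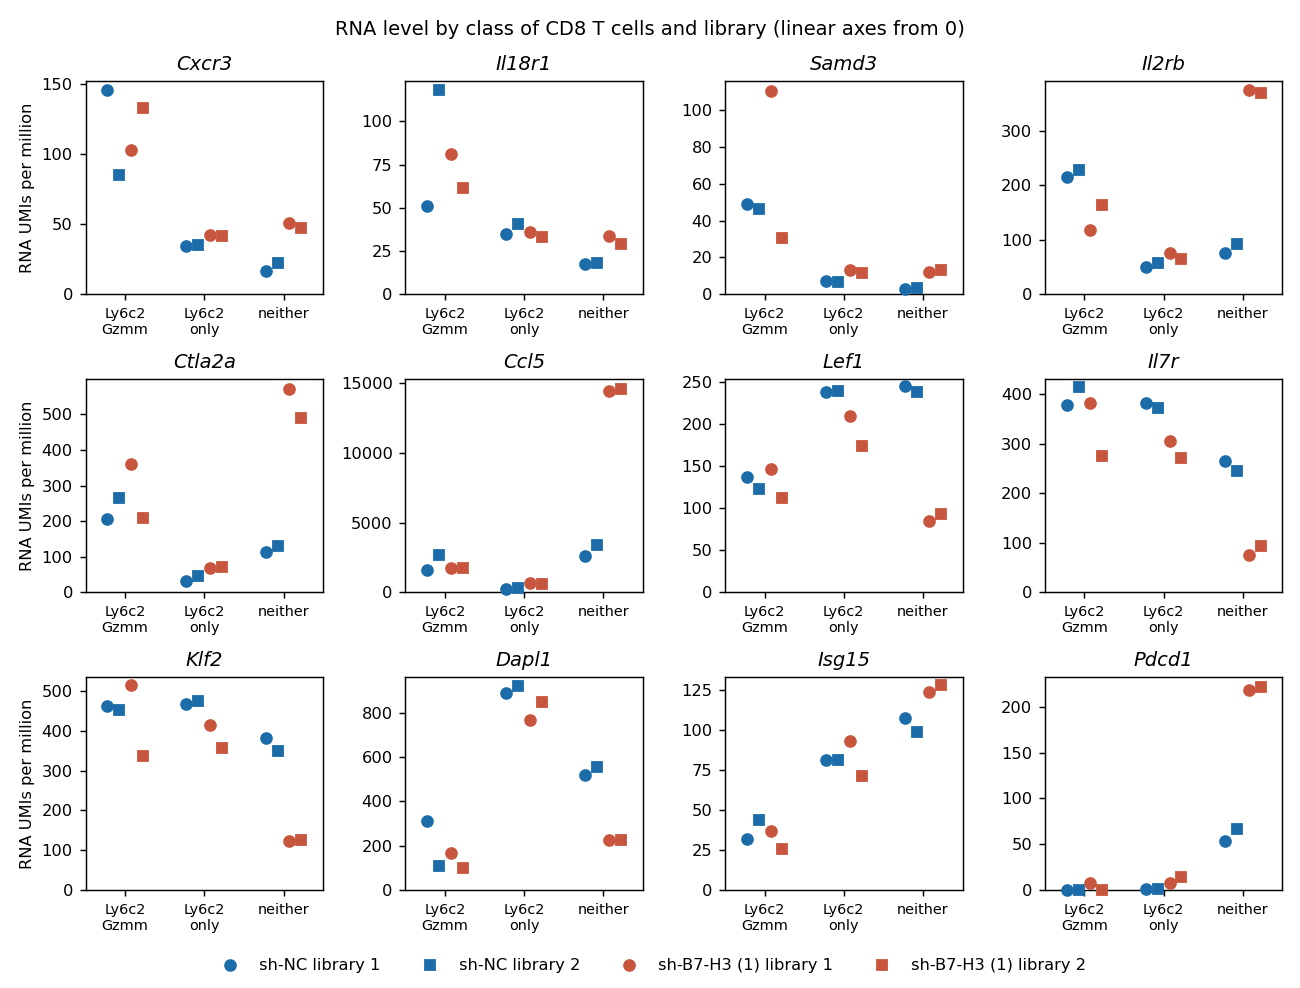
RNA level of 12 genes (CPM, linear axes from 0) in Ly6c2+Gzmm+ cells, Ly6c2+ cells without Gzmm and CD8+ cells with neither gene, with 1 point per library and no averaging. Cxcr3, Il18r1, Samd3, Il2rb and Ctla2a are higher in Ly6c2+Gzmm+ cells than in Ly6c2+ cells without Gzmm, Dapl1, Lef1 and Isg15 are lower, and the tumor groups overlap for Il7r and Klf2 in Ly6c2+Gzmm+ cells but not in cells with neither gene.

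The cells were also set against 2285 CD8+ cells that met the Ly6c2 threshold and held no UMI of Gzmm, Gzmk and Gzmb. The 2 populations did not differ in Gzmm alone. Ly6c2 was measured at 1358, 1476, 1472 and 1082 CPM in the Ly6c2+Gzmm+ cells and at 820, 844, 785 and 789 CPM in the others, whose median depth was 10078.5, 10318, 9922 and 10668 UMIs and thus lower in every library. The parts of Ly6c2 level and depth in these differences were not tested. Against these Ly6c2+ cells without Gzmm, 60 of 4177 genes (1.44%) were higher and 215 (5.15%) lower. The memory genes were on the higher side, with 10 of 26 higher and 2 lower (median log2 0.57), and the naive and quiescence genes on the lower side, with 8 of 20 lower and none higher (median −0.46). Leaving ribosomal protein genes out of the totals changed these to 11 and 2, and to 7 and none. Ctla2a, a cysteine protease inhibitor of activated T cells, was measured at 206, 265, 361 and 209 CPM against 30.7, 44.9, 67.9 and 72.2 CPM (log2 2.20). Ccl5 was measured at 1615, 2681, 1722 and 1725 CPM against 233, 325, 691 and 575 CPM (log2 2.17), and Il2rb at 215, 229, 118 and 163 CPM against 51.1, 57.4, 76.7 and 64.7 CPM (log2 1.43). All 3 genes were higher in every library without overlap. S100a6, Cxcr3 and Itgb1, an integrin chain, had log2 ratios of 1.52, 1.46 and 1.12. Against the reference cells, however, Ccl5 (log2 −1.80) and S100a6 (−1.89) were lower in all 4 libraries. Ctla2a (−0.003) and Il2rb (−0.02) were higher there in both sh-NC and lower in both sh-B7-H3 (1) libraries. Ctla2a, Ccl5, Il2rb and S100a6 were also below CD8+ cells with at least 2 UMIs of Gzmk (−1.48, −3.31, −1.32 and −3.31) or of Gzmb (−1.48, −3.48, −1.06 and −3.57) in all 4 libraries.

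On the lower side Dapl1, a gene of naive and early memory T cells, was measured at 310, 111, 169 and 102 CPM against 890, 920, 765 and 849 CPM (log2 −2.41), and Igfbp4, an insulin-like growth factor binding protein of naive cells, had a log2 ratio of −1.94. Interferon-stimulated genes were again lower, with 16 of 35 genes lower and none higher (median −0.59). Isg15, an interferon-induced ubiquitin-like protein, was measured at 32.1, 43.7, 36.8 and 25.5 CPM against 81.1, 81.3, 93.0 and 71.0 CPM (log2 −1.15). Igtp, an interferon-induced GTPase, and Tap1, the peptide transporter of MHC class I loading, had log2 ratios of −1.64 and −1.03. Ly6c2+Gzmm+ cells were thus below the other Ly6c2+ cells in these genes in every library. Il7r, at 382, 372, 305 and 272 CPM in the Ly6c2+ cells without Gzmm, was close to the values of the Ly6c2+Gzmm+ cells.

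Surface tags were not used by the rule, and their levels were therefore tested between populations over the 197 named antibodies, with the library as a block (edgeR quasi-likelihood, Benjamini-Hochberg adjusted p below 0.05 and at least 1.5-fold). Against the reference cells 17 tags differed (8.63% of those tested), 8 higher and 9 lower. Ly-6C, the product of Ly6c2 and thus not independent of it, was measured at 89722, 86376, 74067 and 77466 tag CPM, against 10795, 10673, 4205 and 5225 (log2 3.58 ± 0.22, SE; adjusted p from edgeR 0.000191). Per cell, Ly-6C took a median of 8.0, 7.41, 8.20 and 7.33% of the tag UMIs in Ly6c2+Gzmm+ cells, 2.56, 2.69, 1.83 and 2.47% in Ly6c2+ cells without Gzmm and 1.05, 1.04, 0.369 and 0.470% in the reference cells. The protein was thus higher in cells with both RNAs than in cells with Ly6c2 alone in every library, and it also differed in the direct test (log2 1.30). Ly6c2 RNA was higher in the former as well.

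CD36, a scavenger receptor for fatty acids, was measured at 10534, 10898, 11324 and 9731 tag CPM against 955, 912, 715 and 811 (log2 3.71 ± 0.10; adjusted p from edgeR 6.49e-06). Ly108, the product of Slamf6 and a marker of memory and progenitor CD8+ T cells, was measured at 12242, 12692, 12430 and 11444 against 1942, 1835, 2104 and 2085 (log2 2.67). Both tags separated the populations in every library. Their RNA did not move with them, since no Cd36 UMI was found in any of the 96 cells and Slamf6 was lower than in the reference cells (log2 −0.63 ± 0.16, SD). The Gr-1 tag (log2 1.69), whose antibody recognizes Ly6G and binds Ly6C as well, and the tags CD11c (1.33) and CD301b (1.07) were also higher, while their genes Itgax and Mgl2 were represented by 3 and 0 UMIs in all 96 cells. Whether the CD36, Ly108, CD11c and CD301b tags report the named proteins on these cells was not tested, neither for antibody cross-binding nor for the assignment of tag barcodes to antibodies. CD127, the IL-7 receptor protein, was higher (log2 0.74) together with its RNA. The tag of CD102, an adhesion molecule, was also higher (0.80), but RNA of its gene Icam2 was lower in 3 libraries (log2 −0.32 ± 0.45, SD).

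Tags of activation and chronic stimulation were lower. CD38 was measured at 11852, 11140, 20498 and 15180 tag CPM against 25080, 29886, 75898 and 73078 (log2 −1.61), CD39 had a log2 difference of −1.50, PD-1 of −1.32, CD43 of −1.10 and CD49d of −0.89. The summed CD38 tag level was thus lower in every library, and in both populations it was higher in the sh-B7-H3 (1) than in the sh-NC libraries, as were the summed isotype control tags. Per cell the order turned in the sh-NC libraries, where CD38 took a median of 0.515 and 0.651% of the tag UMIs of Ly6c2+Gzmm+ cells and 0.235 and 0.240% of those of reference cells, of which the highest 10% held at least 9.34 and 10.7%. Between the groups the CD38 tag did not pass the test in the Ly6c2+Gzmm+ cells under TMM scaling (log2 0.16; adjusted p from edgeR 0.656). Tag CPM do not include that scaling, and the median CD38 share of these cells was 1.16 and 1.20% in the sh-B7-H3 (1) libraries. With a reference free of Gzmk and Gzmb UMIs, however, CD38, CD39, PD-1 and CD43 no longer passed the test (log2 −0.04, −0.25, −0.41 and −0.50). Their calls thus depended on reference cells with Gzmk or Gzmb, while smaller differences of the same sign remained. TIGIT (log2 −3.46) and CD205 (−2.08) were called as well, but the reference cells of sh-NC library 2 held an outlying level of each, and without that library neither passed (log2 −1.89 and −1.53). CD205 was also lost without sh-NC library 1 (−1.94) or sh-B7-H3 (1) library 2 (−2.47), and CD43 (−0.97), CD49d (−0.82) and CD86 (−1.43) without the latter. Tags of CXCR3, CD44 and the IL-2 receptor beta chain did not pass the test, and CD44 gave a median of only 1 UMI per Ly6c2+Gzmm+ cell.

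The same tags set the population apart from effector CD8+ cells. Against cells with at least 2 Gzmk UMIs 29 tags differed (14.7%; 12 higher), and against cells with at least 2 Gzmb UMIs 27 tags (13.7%; 11 higher). In all 3 comparisons, which share the Ly6c2+Gzmm+ cells, 7 tags were higher, namely CD36, Ly-6C, Ly108, Gr-1, CD301b, CD102 and CD127, and 8 were lower, namely CD200R, CD49d, CD43, PD-1, CD39, CD38, CD86 and TIGIT. The reference cells also share cells with both effector classes, so the 3 comparisons are not independent. Of the reference cells, 1448 of 1758, 1154 of 1495, 382 of 1045 and 483 of 1364 had no Gzmk or Gzmb UMI. Against these cells CD43, PD-1, CD39 and CD38 did not pass the test. Against Ly6c2+ cells without Gzmm only 5 tags differed (2.54%), with Ly-6C (log2 1.30), CD36 (1.25), CD11c (1.17) and Ly108 (1.02) higher and CD26, a peptidase of the T cell surface, lower (−0.76). In that comparison CD38, CD39 and PD-1 were not called and their differences turned positive (0.76, 0.40 and 0.08).

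**Figure D2:**
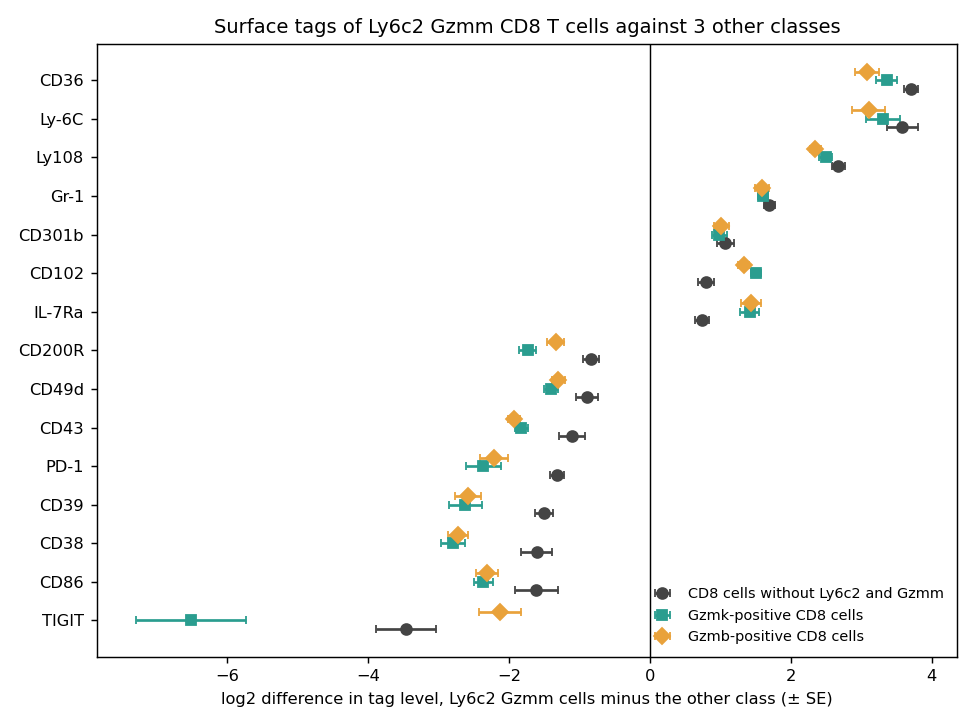
Log2 difference in tag level (± SE) between Ly6c2+Gzmm+ cells and 3 other classes of CD8+ T cells for the 15 tags that differed in the same direction in all 3 comparisons, fitted over 4 libraries with the library as a block. The CD8+ cells without Ly6c2 and Gzmm share cells with both other classes. CD36 and Ly-6C lie farthest to the right and TIGIT and CD38 on the left.

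The first comparison between tumor groups asked whether the population was smaller or larger after B7-H3 knockdown. Ly6c2+Gzmm+ cells made up 1.30% (95% Clopper-Pearson interval 0.942 to 1.76%) and 1.07% (0.726 to 1.53%) of CD8+ cells in the sh-NC libraries, and 0.669% (0.306 to 1.27%) and 0.814% (0.456 to 1.34%) in the sh-B7-H3 (1) libraries. Both knockdown shares lay below both control shares, but the intervals, which cover counting error only, overlapped. The means were 1.19% ± 0.163 and 0.742% ± 0.103 (SD, n = 2), a difference of −0.45 percentage points (two-sided exact permutation p = 0.333, the smallest that 2 against 2 libraries allow). With at least 2 Gzmm UMIs required, the shares were 0.528, 0.501, 0.372 and 0.543%, so that the groups overlapped. Without the upper limit on genes the difference was −1.15 percentage points.

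At an equal depth of 3000 UMIs per cell, the rule found only 12, 10, 1 and 2 cells, or 0.439, 0.417, 0.0845 and 0.126% of CD8+ cells, again lower in both knockdown libraries, whose counts were under 3. At 2000 UMIs it found 4 cells in all, and the groups overlapped. The direction of the difference turned, however, with 2 other denominators. Of CD8+ cells with at least 10000 UMIs, 3.31, 2.64, 3.45 and 3.03% were Ly6c2+Gzmm+, a difference of 0.27 percentage points in the other direction. Of CD8+ cells with at least 2 Ly6c2 UMIs, 3.71, 2.97, 4.89 and 4.67% had Gzmm and no Gzmk or Gzmb, higher in both knockdown libraries. Ly6c2+ cells as a whole took 35.6% ± 0.670 of CD8+ cells in sh-NC and 15.6% ± 2.65 in sh-B7-H3 (1) tumors, and 20.3% ± 0.539 and 7.13% ± 0.771 at 3000 UMIs per cell, and Gzmm+ cells took 1.61% ± 0.0507 and 1.30% ± 0.154 at full depth and 0.712% ± 0.183 and 0.431% ± 0.0129 at 3000 UMIs. Of CD8+ cells with at least 10000 UMIs, 55.9, 53.8, 33.3 and 43.2% were Ly6c2+, lower in both knockdown libraries, whereas 3.50, 2.83, 5.36 and 3.03% were Gzmm+, with no separation of the groups. At full depth and at 3000 UMIs the lower share of the population thus went with lower shares of Ly6c2+ and of Gzmm+ cells. Among the deep cells only the Ly6c2+ share was lower, and the shares of the population and of Gzmm+ cells were not.

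**Figure D3:**
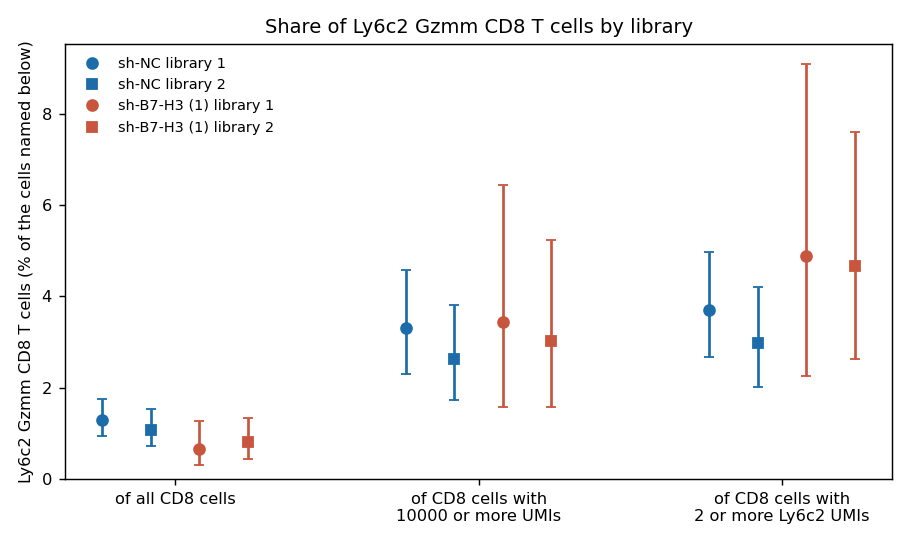
Share of Ly6c2+Gzmm+ cells per library (%, with 95% Clopper-Pearson intervals) among all CD8+ cells, among CD8+ cells with 10000 or more UMIs and among CD8+ cells with 2 or more Ly6c2 UMIs. The sh-B7-H3 (1) libraries are lower with the first denominator, overlap the sh-NC libraries with the second and are higher with the third.

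Within the population RNA was compared between the groups on the counts summed per library, 529326 and 389007 UMIs in sh-NC and 135863 and 195984 UMIs in sh-B7-H3 (1). From these sums alone, fewer cells with a gene and less RNA per cell cannot be told apart. Of 2614 genes tested, 19 differed (0.727%; edgeR quasi-likelihood, adjusted p below 0.05, at least 1.5-fold), 11 higher (0.421%) and 8 lower (0.306%) in sh-B7-H3 (1) tumors, and 268 had an unadjusted p below 0.05. With libraries scaled to total counts in place of TMM, 22 genes were called, 7 higher and 15 lower, and the median of all genes moved from −0.0048 to −0.13. In simulated counts of this size 35.5% of genes changed 2-fold and 83.5% of those changed 4-fold were recovered, so that smaller changes could be missed.

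The largest increases were those of Gm42418, Lars2 and AY036118. Gm42418, a transcript that overlaps ribosomal RNA genes, was measured at 4697, 4895, 23119 and 21369 CPM (log2 2.32 ± 0.05, SE; adjusted p from edgeR 3.99e-59), AY036118, which overlaps it by 923 bases on chromosome 17, at 397, 432, 1362 and 1342 CPM (1.82 ± 0.13), and Lars2, the mitochondrial leucyl-tRNA synthetase, at 108, 108, 397 and 378 CPM (1.94 ± 0.22; adjusted p from edgeR 9.36e-11). These 3 genes differed alike in the reference cells (log2 2.33, 1.97 and 1.87) and in Ly6c2+ cells without Gzmm (2.54, 1.99 and 2.17). Gm42418 took 0.470, 0.489, 2.31 and 2.14% of all RNA UMIs of the population.

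The other higher genes were mt-Nd2, mt-Nd3, mt-Atp8, Atp5g1, Eef1g, Dynll1, Hsp90aa1 and Ndufa13. The mitochondrially encoded complex I subunit mt-Nd2, named although the naming rule left such genes out, was measured at 2214, 2147, 3312 and 3429 CPM (log2 0.74; adjusted p from edgeR 5.04e-14), Atp5g1, a subunit of ATP synthase, at 238, 239, 397 and 413 CPM (0.87 ± 0.19; adjusted p from edgeR 0.00149), and Eef1g, a translation elongation factor, at 688, 704, 1082 and 1087 CPM (0.75 ± 0.12; adjusted p from edgeR 3.36e-06). The median share of mitochondrial UMIs per cell was 3.53, 3.43, 4.12 and 4.29%, also higher in both knockdown libraries. mt-Atp8 had a log2 difference of 0.97, Dynll1 of 0.75, mt-Nd3 of 0.74, Hsp90aa1 of 0.64 and Ndufa13 of 0.63. Several of these differences were shared with other CD8+ cells. In Ly6c2+ cells without Gzmm mt-Nd2 (log2 0.68), mt-Nd3 (0.82) and mt-Atp8 (1.10) also passed the test, and Eef1g (0.51; adjusted p from edgeR 1.84e-10) missed it by its size alone. Atp5g1 differed by 0.11 there and by −0.22 in the reference cells, and its difference in the Ly6c2+Gzmm+ cells was larger than that in the reference cells (interaction 0.99; adjusted p from edgeR 1.94e-05) but did not pass against Ly6c2+ cells without Gzmm (0.76; adjusted p from edgeR 0.116). The calls of Gm42418, Lars2, AY036118, Eef1g and mt-Nd2 held whichever single library was left out, and those of Hsp90aa1 and Ndufa13 held in none of these 4 fits. Atp5g1 and mt-Atp8 kept their call in 1 of the 4 fits, Atp5g1 without sh-B7-H3 (1) library 1 and mt-Atp8 without sh-B7-H3 (1) library 2. Dynll1 was lost without sh-NC library 1 or sh-B7-H3 (1) library 1, and mt-Nd3 without sh-NC library 1. Without the upper limit on genes, Atp5g1 (log2 0.54), Eef1g (0.57), Dynll1 (0.54), mt-Nd3 (0.55), Hsp90aa1 (0.58) and Ndufa13 (0.50) were not called.

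The 8 lower genes were Pik3ip1, Tsc22d3, Samhd1, Dusp11, Zfp36l1, Prrc2c, Znrf2 and Ly6a. Pik3ip1, an inhibitor of PI3-kinase, was measured at 94.5, 72.0, 22.1 and 25.5 CPM (log2 −1.69 ± 0.46; adjusted p from edgeR 0.0281), and Tsc22d3 (GILZ), a glucocorticoid-induced transcription regulator, at 104, 105, 44.2 and 30.6 CPM (−1.41 ± 0.39; adjusted p from edgeR 0.0323). Samhd1, a nucleotide triphosphohydrolase, was measured at 98.2, 95.1, 36.8 and 30.6 CPM (−1.43 ± 0.41; adjusted p from edgeR 0.0407), Dusp11, an RNA phosphatase, at 159, 165, 66.2 and 45.9 CPM (−1.46 ± 0.33; adjusted p from edgeR 0.00368), and Zfp36l1, an RNA-binding protein that destabilizes transcripts, at 123, 111, 29.4 and 51.0 CPM (−1.36). In each of these genes both knockdown libraries lay below both control libraries. Prrc2c (−1.04) and Znrf2 (−1.58) were lower as well. These calls were less firm than those of the leading higher genes. Tsc22d3, Samhd1 and Znrf2 lost their call whichever library was left out, Pik3ip1, Zfp36l1 and Prrc2c without sh-NC library 1 or either knockdown library, and Dusp11 without sh-B7-H3 (1) library 2 (log2 −1.17), all with the same sign. They were also sensitive to the upper limit on detected genes. Without it, which added cells, the log2 difference was −0.03 for Zfp36l1, −0.36 for Dusp11, −0.53 for Prrc2c, −0.85 for Samhd1, −1.01 for Znrf2 and −1.09 for Tsc22d3, none of them called, and Pik3ip1 alone of these 7 kept its call (−1.49). In the reference cells Tsc22d3 (−1.83), Pik3ip1 (−1.43) and Zfp36l1 (−0.93) were lower in knockdown tumors by the test as well, and so was Tsc22d3 in Ly6c2+ cells without Gzmm (−0.90).

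Ly6a, which encodes Sca-1, an interferon-inducible surface protein of memory T cells, had the largest fitted difference, which depended on which cells were counted. Per library Ly6a was detected in 12 of 42, 12 of 30, 1 of 9 and 1 of 15 cells. It was represented by 24 and 32 UMIs in the sh-NC libraries and by 1 UMI in each sh-B7-H3 (1) library, or 45.3, 82.3, 7.36 and 5.10 CPM (log2 −3.16 ± 0.74; adjusted p from edgeR 0.00460), and was not called without sh-B7-H3 (1) library 2 (adjusted p from edgeR 0.192). The log2 difference was −1.52 with up to 10% mitochondrial UMIs, −0.95 with Gzmk and Gzmb UMIs allowed and −0.48 without the upper limit on genes, and it passed the test under none of these (adjusted p from edgeR 0.0966, 0.353 and 0.702). The Sca-1 tag fell in the same direction, from 9587 and 10249 to 4628 and 8073 tag CPM (log2 −1.13 with TMM, which tag CPM do not include, and −0.64 with total counts; adjusted p from edgeR 0.0474 and 0.0263).

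**Figure D4:**
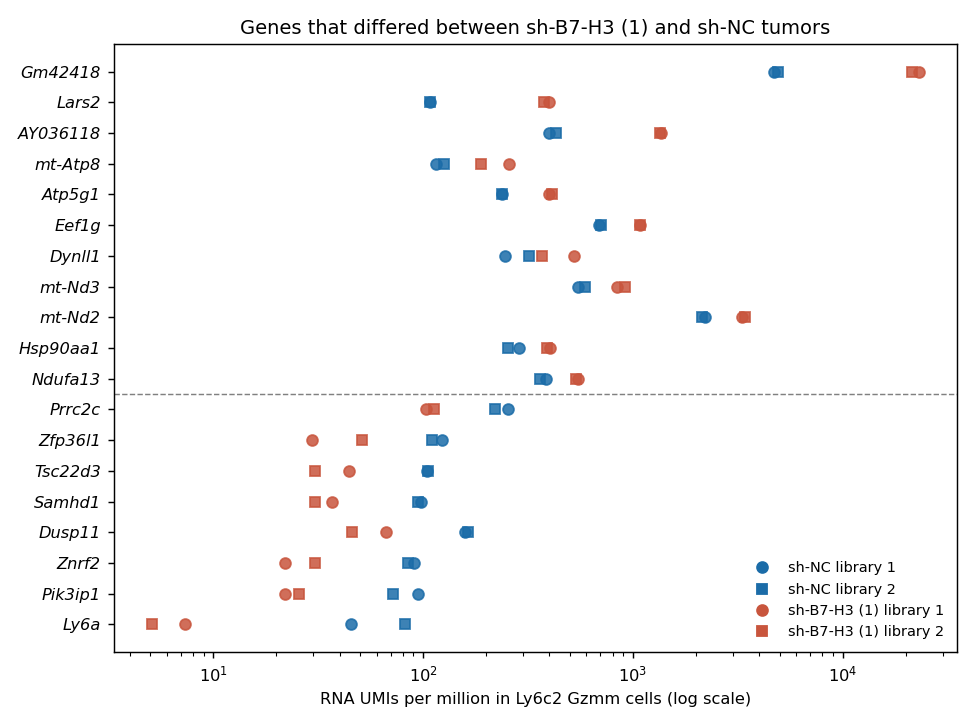
RNA level (CPM in Ly6c2+Gzmm+ cells, log scale) of the 19 genes that differed between sh-B7-H3 (1) and sh-NC tumors, with 1 point per library and a dashed line between the 11 higher and the 8 lower genes. For Gm42418 the sh-NC libraries lie at 4697 and 4895 and the sh-B7-H3 (1) libraries at 23119 and 21369, and Ly6a shows the widest gap among the lower genes.

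Few listed genes passed the test. Over all genes tested the shares were 0.421% higher and 0.306% lower. Of 25 memory genes tested, none was higher and 1, Ly6a, lower, of 17 naive and quiescence genes 1, Tsc22d3, was lower, and of 25 interferon-stimulated genes 2, Samhd1 and Ly6a, were lower. None of 10 immediate early genes passed, although 7 had an unadjusted p below 0.05, against 268 of all 2614 genes (10.3%), with a median log2 difference of −0.75. In the reference cells 8 of 16 immediate early genes were lower and 1 higher by the test (median −0.56). Of all 11229 genes tested there 965 were lower and 1410 higher. No immediate early gene had a different response in the Ly6c2+Gzmm+ than in the reference cells by the test. In the cells thinned to 3000 UMIs, the shares with a UMI of 56 listed genes gave no adjusted p below 0.05, which 2 against 2 libraries cannot reach (smallest exact permutation p 0.333).

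Among the surface tags 23 of 197 differed between the groups (11.7%), 5 higher and 18 lower, but the direction depended on scaling. Scaled to total tag counts, 71 tags were called, 67 higher and 4 lower, with a median over all tags of 0.49, against 0.02 with TMM. With scaling to the 9 isotype controls, which bind no mouse antigen, 27 tags were called, 3 higher and 24 lower. The isotype controls themselves summed to 2492, 2462, 3809 and 3517 tag CPM, higher in both knockdown libraries. Under TMM, whose factors are not part of the tag CPM, CD45, the common leukocyte phosphatase, was measured at 13711, 14703, 8007 and 6979 tag CPM (log2 −1.40, and −0.92 with total counts), CD8b had a log2 difference of −1.14, CD2 of −1.06, HVEM of −1.05, CD127 of −0.74 and Ly-6C of −0.70. CD22, a B cell receptor, was higher (1.48). Under all 3 scalings CD45, CD8b, CD86 and Sca-1 were lower and CD22 was higher by the test, while the other 14 lower tags were not called with total counts. CD127 was lost without sh-NC library 2. In the reference cells CD45 (−1.05), HVEM (−1.05), CD2 (−0.97) and CD22 (1.28) had the same signs.

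The last question was whether the difference between tumor groups in the Ly6c2+Gzmm+ cells differed from that in the reference cells, which was tested as an interaction of population and group. Of 10187 genes, 148 had a different response (1.45%), 72 more positive (0.707%) and 76 more negative (0.746%) in the Ly6c2+Gzmm+ cells, and 892 had an unadjusted p below 0.05. The count was 62 without sh-NC library 1, 81 without sh-NC library 2, 101 without sh-B7-H3 (1) library 1 and 81 without sh-B7-H3 (1) library 2, and 43 against reference cells free of Gzmk and Gzmb UMIs. The naive and quiescence genes stood on the positive side, with 8 of 20 called and none negative, among them S1pr1, Lef1, Klf2, Tcf7 and Il7r, and the memory genes on the negative side, with 14 of 33 negative and 1 positive, Ms4a4c. The positive side depended on the reference. Against reference cells free of Gzmk and Gzmb UMIs, 3 of 8414 genes were more positive and 40 more negative. Against Ly6c2+ cells without Gzmm, none of the 20 naive and quiescence genes was called, and of 28 memory genes 1, Ccl5, was negative.

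Myc, a driver of growth, differed by 0.83 on the log2 scale between the groups in Ly6c2+Gzmm+ cells and by −1.15 in the reference cells (interaction 1.88 ± 0.51, SE; adjusted p from edgeR 0.0134). In the Ly6c2+Gzmm+ cells alone the Myc difference did not pass the test (adjusted p from edgeR 0.540). Nor did its interaction pass against Ly6c2+ cells without Gzmm (1.01; adjusted p from edgeR 0.824). Against a reference free of Gzmk and Gzmb UMIs Myc did not pass (interaction 1.46), and it was lost without sh-NC library 1 (1.61) or sh-B7-H3 (1) library 2 (1.69) as well. On the other side Il2rb differed by −0.51 and 2.04 (interaction −2.67 ± 0.23; adjusted p from edgeR 5.69e-28), Ccl5 by −0.19 and 2.17 (−2.45 ± 0.09; adjusted p from edgeR 1.74e-159), and S100a6 by −0.04 and 2.11 (−2.26 ± 0.19; adjusted p from edgeR 1.01e-28). These 3 genes were higher in the reference cells of knockdown tumors, and none of them differed by the test in the Ly6c2+Gzmm+ cells.

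The make-up of the reference cells, which differed between the groups, moved with this result. The CD38 tag took a median of 0.235 and 0.240% of the tag UMIs of reference cells in the sh-NC libraries and 7.96 and 7.75% in the sh-B7-H3 (1) libraries, against 0.515, 0.651, 1.16 and 1.20% in the Ly6c2+Gzmm+ cells. Against Ly6c2+ cells without Gzmm, only 3 of 6477 genes (0.0463%) had a different response, with 378 at an unadjusted p below 0.05. They were S100a4 (interaction −3.78), S100a6 (−2.51) and Ccl5 (−1.46). S100a6, a calcium-binding protein, was measured at 244, 226, 206 and 219 CPM in the Ly6c2+Gzmm+ cells and at 24.8, 40.9, 176 and 156 CPM in the Ly6c2+ cells without Gzmm, so that the latter reached from far below the former in sh-NC tumors to close to it in sh-B7-H3 (1) tumors. S100a4, at 7.13, 6.80, 127 and 65.1 CPM in the Ly6c2+ cells without Gzmm, passed from below the Ly6c2+Gzmm+ cells to above them, and Ccl5 remained below them in every library. The S100a4 level of the Ly6c2+Gzmm+ cells rested on 16, 5, 2 and 5 UMIs, under 3 counts in sh-B7-H3 (1) library 1. Leaving out single libraries was not tried for this comparison.

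**Figure D5:**
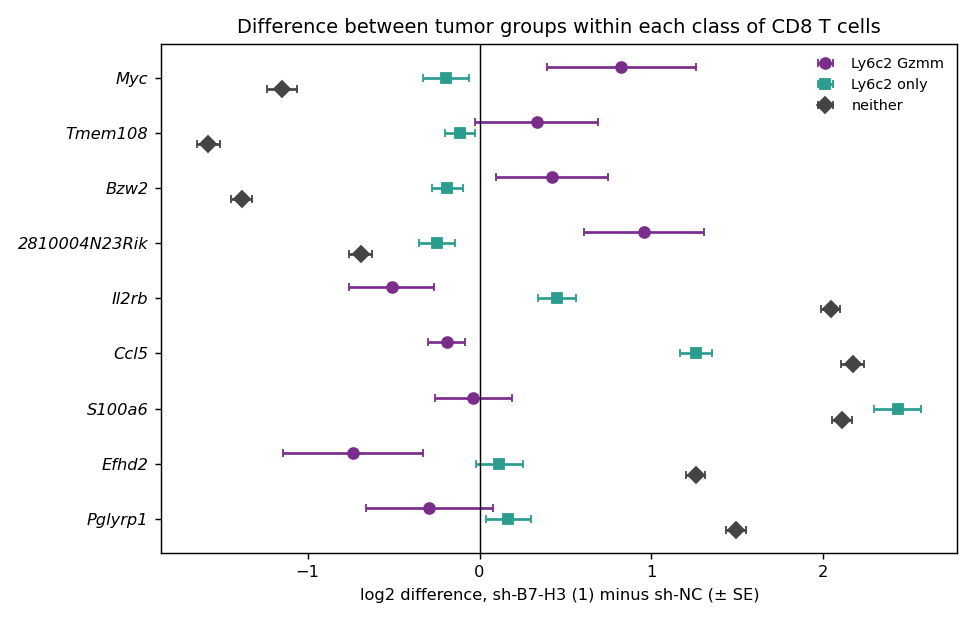
Log2 difference between sh-B7-H3 (1) and sh-NC tumors (± SE) for 9 genes whose difference was not the same in Ly6c2+Gzmm+ cells and reference cells (neither gene), with Ly6c2+ cells without Gzmm beside them. Il2rb lies at −0.51 and 0.45 in the Ly6c2+ populations with and without Gzmm and at 2.04 in the reference cells, while Ccl5 and S100a6 are also higher in Ly6c2+ cells without Gzmm.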

How the data were processed

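CD3-sorted cells of the 4 libraries were profiled with 10x Genomics 3' chemistry. The deposited values are raw UMI counts of 32285 genes and 197 named antibody tags per barcode, which the authors made with Cell Ranger (6.1.1 in the file header) and STAR on mm10, without normalization. Replicate numbers did not pair the libraries (correlation of deviations −0.0127 for RNA and −0.13 for tags). Computed here were the cells, per-library sums and CPM, tests with edgeR 4.0.16 in R 4.3.3 (TMM, filterByExpr, quasi-likelihood, Benjamini-Hochberg; calls at adjusted p below 0.05 and 1.5-fold; the library as a block between populations of cells), exact permutation tests and thinning to 3000 UMIs. Log2 ratios between populations add 5 CPM to each RNA level. Doublets were scored against simulated doublets and not removed, except as an alternative. The cells, lists and comparisons were chosen with earlier results of these data known.

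Named genes were the 12 highest and lowest called ones of at least 50 CPM whose groups did not overlap (15 per side between populations, 8 tags, 5 for the interaction), leaving out mitochondrial, ribosomal protein and T cell receptor genes, plus listed genes that were called or abundant. Tests were tried on simulated data. Alternatives changed scaling, filters, thresholds of the rule, depth, the reference cells and the tool (DESeq2 1.42.0), and each library was left out in turn. Some genes are not reported here.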

Additional observations from a re-analysis of the deposited data

Results flagged for a closer look

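The difference between sh-B7-H3 (1) and sh-NC tumors was not the same in Ly6c2+Gzmm+ cells and in CD8+ cells without Ly6c2 and Gzmm for 148 genes by the test of the interaction (edgeR, 2 libraries per group and population). The count was 62 to 101 when 1 library was left out and 43 against reference cells free of Gzmk and Gzmb UMIs. Of these 43 genes, 3 were more positive and 40 more negative in the Ly6c2+Gzmm+ cells. The genes named from the 148 with a more positive difference in the Ly6c2+Gzmm+ cells were Myc (log2 1.88), Tmem108 (1.81), Bzw2 (1.70) and 2810004N23Rik (1.55). Those with a more negative difference were Il2rb (−2.67), Ccl5 (−2.45), S100a6 (−2.26), Efhd2 (−2.09) and Pglyrp1 (−1.89). None of these named genes differed by the test between the groups in the Ly6c2+Gzmm+ cells alone. The 5 negative ones kept their call whichever library was left out. Myc was lost without sh-NC library 1 (1.61) or sh-B7-H3 (1) library 2 (1.69), Tmem108 without sh-B7-H3 (1) library 2 (1.27), Bzw2 without that library (0.69) or sh-NC library 1 (1.53), and 2810004N23Rik without sh-NC library 1 (1.41), sh-NC library 2 (1.66) or sh-B7-H3 (1) library 1 (1.25).

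Against Ly6c2+ cells without Gzmm the interaction was called for S100a4 (−3.78), S100a6 (−2.51) and Ccl5 (−1.46) and for no other gene, with 378 at an unadjusted p below 0.05. S100a4 had only 16, 5, 2 and 5 UMIs in the Ly6c2+Gzmm+ cells. Groups of 2 libraries are too small for a search for outlying samples.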

How the results depend on the processing

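The number of genes that differed between tumor groups within the Ly6c2+Gzmm+ cells was 19, and 9 to 18 when 1 library was left out, with 9 without sh-NC library 1. It was 50 with no limit on fold, 11 at 2-fold or more, 12 without a filter on low counts, 7 with DESeq2 (75 at an unadjusted p below 0.05, and no adjusted p for 2230 genes), 10 without the upper limit on genes, and 4 each with Gzmm of at least 2 and after thinning, where 183 genes were tested. The interaction count of 148 was 62 to 101 when 1 library was left out (62 without sh-NC library 1, 81 without sh-NC library 2 and 81 without sh-B7-H3 (1) library 2), 228 with no limit on fold, 95 at 2-fold, 43 against reference cells free of Gzmk and Gzmb, 62 against depth-matched reference cells and 3 against Ly6c2+ cells without Gzmm. Thinning and the stricter Gzmm threshold leave fewer cells, and the fold limits change the criterion; for the other alternatives the cause was not tested. The 481 genes that differed from the reference cells were 386 to 663 when 1 library was left out, 277 against depth-matched cells, 303 with ribosomal protein genes left out of the totals (118 higher and 185 lower) and 83 against Ly6c2+ cells without Gzmm.

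The 17 tags that differed from the reference cells were 13 to 19 when 1 library was left out, 30 with no limit on fold and 5 against Ly6c2+ cells without Gzmm, where CD38 (0.76), CD39 (0.40) and PD-1 (0.083) changed sign. Against Gzmk+ cells the range was 24 to 27 and against Gzmb+ cells 28 to 31. The 23 tags that differed between tumor groups were 20 to 31 when 1 library was left out, 7 at 2-fold, 15 with up to 10% mitochondrial UMIs, 71 with scaling to total counts and 0 after thinning (30 at an unadjusted p below 0.05 in edgeR). The difference in share of −0.45 percentage points was −0.56 to −0.33 when 1 library was left out, −0.25 with up to 10% mitochondrial UMIs, −1.15 without the upper limit on genes, −0.057 with Gzmm of at least 2, −0.32 after thinning to 3000 UMIs (25 cells), −0.036 after thinning to 2000 UMIs (4 cells), −0.23 of all cells, and 0.27 and 1.44 with the deep and the Ly6c2+ denominators.

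With the replicate number as a block, 18 genes and 16 tags were called between groups, and with the numbers crossed, an alternative added after seeing the data, 23 tags. Pairing changed no other count. The total-count scaling, crossed numbers, totals without ribosomal protein genes, depth-matched cells, Ly6c2+ reference and both extra denominators were added after the data were seen. Of the single genes named between groups, 25 of 60 leave-one-out values and 107 of 160 other values kept their call, and all kept their sign. With 9 and 15 cells, the knockdown sums of 135863 and 195984 UMIs limited the precision.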
